A study of Mus musculus with 43 samples.

Results

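The small leucine-rich proteoglycans (SLRPs) are secreted matrix proteins whose core is built of leucine-rich repeats. The genes described are the 8 rows of all 5 deposited expression tables whose symbol is Bgn, Dcn, Aspn, Lum, Fmod, Prelp, Omd or Ogn, out of 38983 genes that the tables share. SLRPs bind fibrillar collagens and govern how collagen fibrils assemble, and several also bind growth factors such as TGF-beta or cell surface receptors. Fibroblasts are a main source of them in connective tissue, and reprogramming to pluripotency replaces the fibroblast expression programme. Class I holds biglycan (Bgn) and decorin (Dcn), which carry chondroitin or dermatan sulfate chains, and asporin (Aspn), which is known for a run of aspartic acid residues. Class II holds lumican (Lum), fibromodulin (Fmod), prolargin (Prelp) and osteomodulin (Omd), of which lumican, fibromodulin and osteomodulin can carry keratan sulfate. Osteoglycin (Ogn), also called mimecan, belongs to class III.

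Polyadenylated RNA was sequenced from 43 mouse libraries to follow fibroblasts on their way to naive pluripotency. Of these, 34 come from 4 secondary mouse embryonic fibroblast (MEF) systems that carry doxycycline-inducible reprogramming factors. The systems named Mbd3f/- and Gatad2a-/- are depleted of a subunit of the NuRD chromatin complex, and WT-1 and WT-2 are the unmodified systems. Mbd3f/- stands for a floxed over a null allele of Mbd3. Each depleted system has MEF, days 1 to 8 of doxycycline and established induced pluripotent stem cells (iPSC), each WT system has MEF, days 2, 4, 6 and 8 and iPSC, and Mbd3f/- and WT-1 each have 1 library of embryonic stem cells (ES). The other 9 libraries carry Mbd3f/- labels and vary Myc. They are 2 si-Scramble MEF and 1 library each labelled si-Scramble day 7, siMyc day 3, siMyc day 7, Myc inhibitor day 3, OSK day 4, cMyc day 4 and OSK + cMyc day 4, where OSK stands for Oct4, Sox2 and Klf4. The siRNA pools were directed at cMyc, lMyc and nMyc. In the line named OSK2nd, the factors came from a lentiviral doxycycline-inducible cassette of Oct4, Klf4 and Sox2, and its secondary MEF were isolated from chimeras. Cells were induced in serum with LIF at 5% oxygen, and a serum-replacement medium with MEK and GSK3 inhibitors came in on day 3.5 per the design text, whereas the growth protocol gives an earlier addition. Days 3 to 8, iPSC and ES were grown on irradiated human foreskin fibroblasts, so time, medium and feeder change together along each course.

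Values are FPKM, which are per transcript length, so that levels may be compared between genes, and tests used log2(FPKM + 1). Between 12266 and 16896 genes per library reached an FPKM of 1 in the 5 tables. Gatad2a-/- libraries held 15485 to 16896 such genes, against 12266 to 13861 in Mbd3f/-, 12321 to 13161 in WT-1 and 13197 to 13983 in WT-2. FPKM summed over the shared genes ranged from 1494233 to 10044670 in Gatad2a-/-, and reached at most 917427 in Mbd3f/-, WT-1 and WT-2. The part of these differences in the low values and the timing of Gatad2a-/- was not tested. The number of reads behind each value is unknown, every mitochondrial gene was listed at 0, and a listed 0 may therefore be a failed estimate. In these bulk cultures, fewer expressing cells and less RNA per cell cannot be told apart. Whether libraries of 1 system were grown as separate cultures is not in the labels, and p-values reflect only how far these libraries spread. Mbd3 itself stood at 36.3 to 96.5 FPKM in Mbd3f/- libraries, 75.3 to 117 in WT-1 and 53.0 to 135 in WT-2. Gatad2a stood at 8.59 to 14.7 FPKM in Gatad2a-/- and 9.17 to 38.5 in WT-2. These ranges overlap. Gene-level values can include RNA of the disrupted allele, and the systems are called by their labels. All 10 fibroblast markers reached an FPKM of 1 in every MEF library.

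The 8 genes sit on 4 chromosomes in the GENCODE annotation of GRCm38, the assembly also called mm10. Dcn (ENSMUSG00000019929, chr10:97479609-97518143) and Lum (ENSMUSG00000036446, chr10:97565128-97572703) lie 47.0 kb apart on the plus strand. Aspn (ENSMUSG00000021388, chr13:49544443-49567565), Omd (ENSMUSG00000048368, chr13:49582462-49592822) and Ogn (ENSMUSG00000021390, chr13:49608046-49624501) follow each other on the plus strand of chromosome 13 with gaps of 14.9 and 15.2 kb. All 3 lie inside Cenpp, a centromere protein gene on the minus strand, and exons of Aspn overlap exons of Cenpp. Prelp (ENSMUSG00000041577, chr1:133910304-133921414, minus strand) and Fmod (ENSMUSG00000041559, chr1:134037254-134048277, plus strand) lie 116 kb apart. Bgn (ENSMUSG00000031375) stands alone at chrX:73483602-73495933. The library kit named in the labels does not mark strand, so values of Aspn, and of Prelp where an exon of Gm15851 overlaps it, may hold reads of the other gene. Cenpp stood at 17.1 FPKM (median of 11 Mbd3f/- libraries, 4.30 to 43.3) and never below 4.30, while Aspn in the same libraries after MEF lay at or below 0.619.

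RefSeq promoter entries (GRCm38.p6) were found for 6 of the 8 genes. The 250 bases before the start of Aspn and Ogn, whose levels moved together, and of Bgn, the most abundant member in MEF, are shown. Capitals mark a match, on either strand, to the TATA box TATAAA, the GC box GGGCGG or the TEAD motif GGAATG.
Aspn, chr13:49544193-49544442, plus strand: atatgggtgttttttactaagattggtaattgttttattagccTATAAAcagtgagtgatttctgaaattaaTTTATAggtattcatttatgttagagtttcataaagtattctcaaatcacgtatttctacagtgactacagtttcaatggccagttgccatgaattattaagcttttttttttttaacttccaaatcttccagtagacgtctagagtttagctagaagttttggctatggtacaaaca
Ogn, chr13:49607765-49608014, plus strand: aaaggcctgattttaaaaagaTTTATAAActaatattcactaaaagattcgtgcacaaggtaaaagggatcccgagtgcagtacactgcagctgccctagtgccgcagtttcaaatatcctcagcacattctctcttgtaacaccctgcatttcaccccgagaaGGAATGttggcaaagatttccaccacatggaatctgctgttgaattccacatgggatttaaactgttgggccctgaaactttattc
Bgn, chrX:73483351-73483600, plus strand: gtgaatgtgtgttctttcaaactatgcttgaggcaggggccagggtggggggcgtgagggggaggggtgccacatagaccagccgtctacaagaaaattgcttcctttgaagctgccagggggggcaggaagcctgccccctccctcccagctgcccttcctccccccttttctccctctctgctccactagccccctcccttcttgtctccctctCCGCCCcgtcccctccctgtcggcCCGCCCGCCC
Aspn and Ogn each hold 2 matches to TATAAA, which overlap each other in Ogn, and Ogn holds 1 match to GGAATG. Bgn holds 3 matches to GGGCGG and none to TATAAA. Among 32851 promoters of this length, 12.4% hold TATAAA, 32.7% hold GGGCGG and 12.6% hold GGAATG. The AP-1 motif TGANTCA (6.75% of promoters) and the Myc E-box CACGTG (6.02%) matched none of the 6 windows, and no motif matched in Fmod, Prelp or Omd. A match is a description of these letters only.

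All MEF expressed biglycan at a very high level. Bgn stood at 2161 FPKM in MEF of Mbd3f/-, 2233 in Gatad2a-/-, 2137 in WT-1 and 1633 in WT-2, and made up 52.9% to 90.4% of the summed FPKM of the 8 genes. Ogn followed at 142, 87.6, 117 and 368 FPKM, and Aspn at 83.9, 60.1, 70.7 and 259 FPKM, in the same order of systems. The MEF differed most in decorin and lumican: Dcn was at 141, 121, 6.19 and 231 FPKM, and Lum at 83.3, 24.9, 2.50 and 289 FPKM. WT-1 MEF were thus low in both of these neighbouring genes, while their Bgn, Aspn and Ogn lay near those of the depleted systems. Fmod (64.5, 34, 18.5 and 246 FPKM) and Prelp (17.6, 9.80, 10.3 and 49.2 FPKM) were highest in WT-2. Omd was the scarcest member at 0.966, 5.23, 2.82 and 10.6 FPKM.

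**Figure D1:**
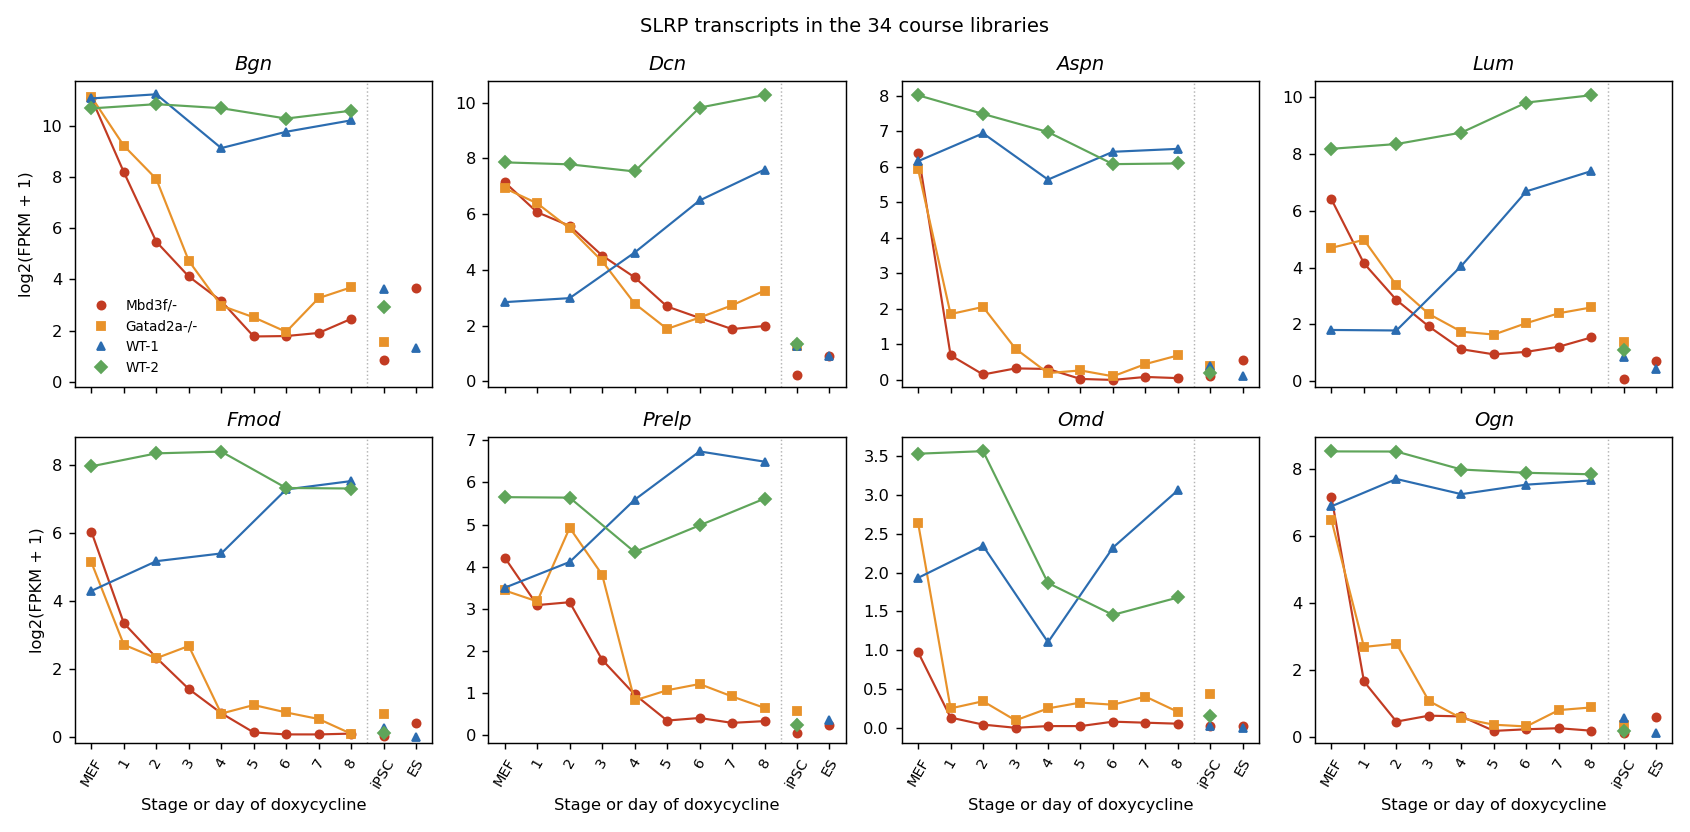
Level of each SLRP transcript as log2(FPKM + 1) (y axis) against stage or day of doxycycline (x axis). Each point is 1 library, lines join the libraries of a system from MEF to day 8, and iPSC and ES stand to the right of the dotted line. In the 2 depleted systems all 8 genes end low by day 8, whereas both WT systems still hold all 8 on day 8 and lose them in iPSC.

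In the depleted systems most of the asporin and osteoglycin RNA of MEF was lost by day 1. Aspn in Mbd3f/- went from 83.9 FPKM in MEF to 0.619, 0.112, 0.253 and 0.239 on days 1 to 4, and lay between a listed 0 and 0.0600 from day 5 to day 8. Day 1 thus held 0.737% of the MEF level. Aspn in Gatad2a-/- went from 60.1 FPKM to 2.62, 3.16, 0.839 and 0.143 on days 1 to 4, which left 4.35% on day 1, and then lay between 0.0737 and 0.614. Ogn, from the same gene cluster, went in Mbd3f/- from 142 FPKM to 2.14, 0.365, 0.544 and 0.521 on days 1 to 4 and lay between 0.126 and 0.191 afterwards. In Gatad2a-/- it went from 87.6 FPKM to 5.42, 5.87, 1.09 and 0.466 and then lay between 0.235 and 0.831. Day 1 held 1.5% and 6.18% of the Ogn of MEF. No library of days 1 to 8 of either depleted system overlapped the MEF in Aspn or Ogn, and both genes were below 10% of MEF from day 1 on.

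Biglycan and fibromodulin were lost over several days. Bgn in Mbd3f/- went from 2161 FPKM in MEF to 290, 43.4, 16.3 and 7.92 on days 1 to 4, and to 2.42, 2.46, 2.76 and 4.5 on days 5 to 8. In Gatad2a-/- it went from 2233 FPKM to 595, 241, 25.5 and 6.87, and then to 4.74, 2.87, 8.65 and 11.9. Biglycan therefore still stood at 13.4% and 26.6% of MEF on day 1, and fell below 1% for good on day 3 in Mbd3f/- and day 4 in Gatad2a-/-. Fmod in Mbd3f/- read 64.5 FPKM in MEF, then 9.11, 3.99, 1.64 and 0.610 on days 1 to 4, and 0.0439 to 0.0869 from day 5 to day 8. In Gatad2a-/- it read 34 FPKM, then 5.51, 3.94, 5.34 and 0.596, and lay between 0.0582 and 0.901 on days 5 to 8. The day 3 value of Gatad2a-/- exceeded its days 1 and 4, and the level went below 1% of MEF in day 8 of that system and in day 4 of Mbd3f/-.

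On days 1 and 2, decorin, lumican and prolargin held a larger share of MEF than biglycan and fibromodulin in both depleted systems. In Mbd3f/-, however, lumican was below 10% of MEF from day 2 on, the same day as biglycan and fibromodulin. Dcn in Mbd3f/- went from 141 FPKM to 66.1, 46.9, 21.9, 12.3, 5.45, 3.85, 2.68 and 2.97 on days 1 to 8. In Gatad2a-/- it went from 121 FPKM to 82.8, 43.9, 19, 5.94, 2.69, 3.89, 5.64 and 8.58. Both courses first held less than 10% of MEF on day 4, and neither went below 1%. Lum in Mbd3f/- read 83.3 FPKM in MEF and 16.8, 6.27, 2.81, 1.19, 0.931, 1.05, 1.33 and 1.92 on days 1 to 8. In Gatad2a-/- it read 24.9 FPKM in MEF, 30.5 on day 1 and then 9.42, 4.16, 2.36, 2.13, 3.13, 4.26 and 5.06. Day 1 of Gatad2a-/- was thus 1.22 times its MEF in Lum, where Mbd3f/- held 20.1%. Prelp, which anchors basement membranes to connective tissue, read 17.6 FPKM in Mbd3f/- MEF and 7.49, 7.90, 2.45, 0.949, 0.266, 0.322, 0.219 and 0.255 on days 1 to 8. In Gatad2a-/- it read 9.80 FPKM in MEF and 8.01 on day 1, stood above MEF at 29.3 and 13 on days 2 and 3, and read 0.763, 1.09, 1.31, 0.885 and 0.561 on days 4 to 8. Only Prelp in Gatad2a-/- exceeded the MEF level on day 2 or 3, among the 8 genes in these 2 systems. Omd, at 0.966 and 5.23 FPKM in MEF, was at most 0.322 FPKM on days 1 to 8 of both systems. It stood at 9.92% and 3.62% of MEF on day 1, so it was below 10% as early as Aspn and Ogn.

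**Figure D2:**
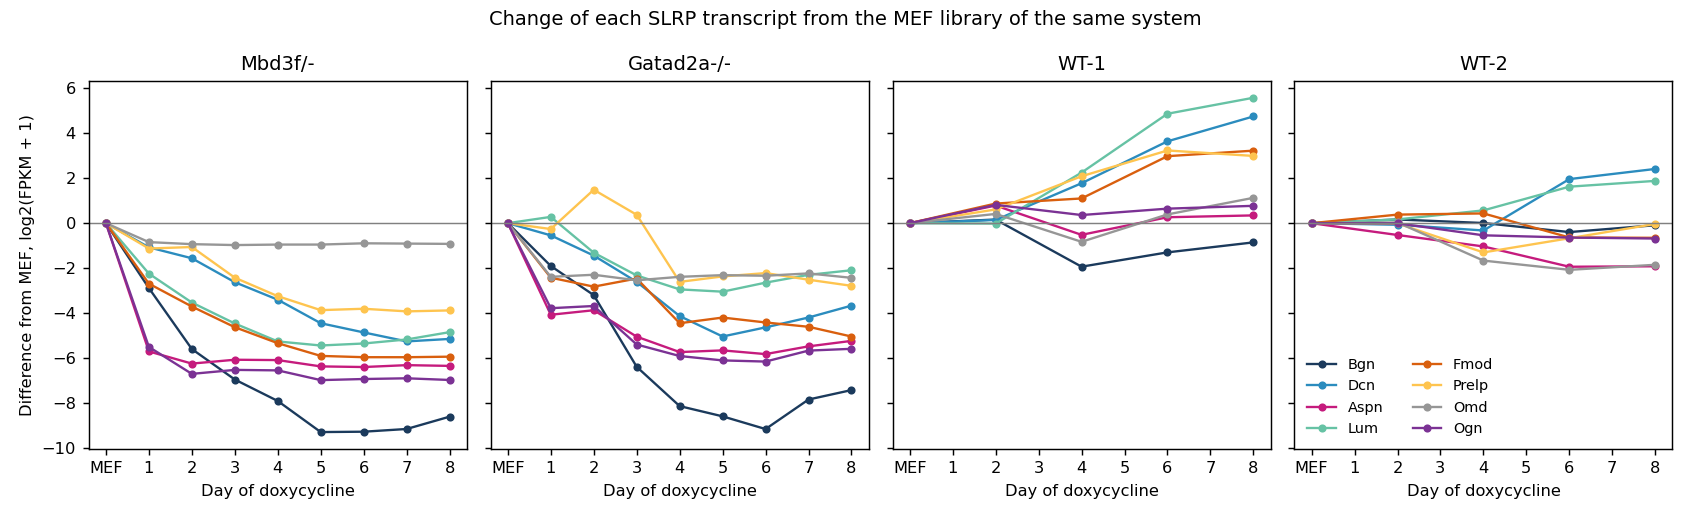
Difference in log2(FPKM + 1) between each day and the MEF library of the same system (y axis) against day of doxycycline (x axis), 1 panel per system and 1 line per gene. Aspn and Ogn make most of their way down on day 1 in the depleted systems, and Bgn goes on down to day 5 or 6. The WT lines of Aspn, Ogn and Bgn stay far above those of the depleted systems. Omd of WT-2 lies below Omd of Mbd3f/- on days 4, 6 and 8.

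These courses were tested in 20 libraries of the 2 depleted systems with limma, with the system as a block, and p-values were adjusted over 20198 genes. Omd did not reach an FPKM of 1 in 2 or more libraries, the filter used, so 7 of the 8 genes were tested. Between MEF and day 1, 4 of the 7 fell, where 9.0% of all genes fell: Aspn changed by -4.90 ± 0.44 (log2, SE, adjusted p = 6.4e-05), Ogn by -4.65 ± 0.52 (0.000179), Fmod by -2.56 ± 0.45 (0.00179) and Bgn by -2.40 ± 0.49 (0.00428). Dcn (-0.81 ± 0.48, 0.275), Lum (-0.98 ± 0.55, 0.247) and Prelp (-0.69 ± 0.54, 0.430) did not pass on day 1. Over days 1 to 3 against MEF, 6 of 7 fell (14.2% of all genes), and Prelp did not (-0.50 ± 0.44, adjusted p = 0.445). From days 1-3 to days 4-6, all 7 tested genes fell (12.8% of all genes), led by Bgn (-4.24 ± 0.28, 1.94e-06), Dcn (-2.78 ± 0.28, 3.13e-05) and Prelp (-2.52 ± 0.31, 0.000148), with Aspn smallest (-0.84 ± 0.26, 0.0353). With a pseudocount of 0.1 this step was -2.18 for Aspn, -2.21 for Ogn (-1.17 with 1) and -3.28 for Fmod (-1.92 with 1), past that of Dcn (-3.00) and short of that of Prelp (-3.50). From days 4-6 to days 7-8, 0 of 7 passed in limma (0 of 7 also at an unadjusted p under 0.05), where 15.2% of all genes were called. The median change of all genes lay between -0.01 and 0.13 in these 4 comparisons. Aspn in the second step had an adjusted p of 0.0636 with no filter on low values and 0.152 without the system block, Ogn there had 0.0687 without the block, and Bgn on day 1 had 0.0781 without it. In single systems the Lum change over days 1 to 3 was -1.12 without Mbd3f/- and -3.42 without Gatad2a-/-, and from days 1-3 to days 4-6 Ogn changed by -1.77 and -0.58 and Aspn, without Mbd3f/-, by -1.41.

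Markers of other cells moved along the same courses. The summed FPKM of 10 fibroblast markers was 5585 to 8425 in MEF of the depleted systems and 58.5 to 459 over days 4 to 8. The sum of 8 macrophage and blood markers went from 194 to 1083 in these MEF, where all 8 reached an FPKM of 1, to 11.3 to 42.3 over days 4 to 8. Cartilage markers (10 genes) went from 51.5 to 83.0 in these MEF to 0.958 to 6.09, and tendon markers (5 genes) from 54.5 to 84.3 to 0.647 to 4.08. Bone markers (8 genes) summed to 20.7 and 185 in these MEF and 10.6 to 246 over days 4 to 8, and endothelial markers (6 genes) to 4.00 and 9.20 and then 5.96 to 42.2. The part of these cells in the SLRP values was not tested. Pluripotency markers (10 genes) reached 386 to 5145 FPKM in sum over the same days. The summed SLRP level was 7.32 to 27.8 FPKM on days 5 to 8 of these systems and 1.27 to 14.7 FPKM in the 6 iPSC and ES libraries, all grown on human feeders. The part of human reads was not tested.

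Both WT systems still held all 8 SLRP transcripts on day 8, some of them below the MEF level. Bgn in WT-1 read 2137 FPKM in MEF and 2392, 557, 867 and 1181 on days 2, 4, 6 and 8, so that its lowest value was 26.1% of MEF. In WT-2 it read 1633 FPKM in MEF and 1831, 1642, 1241 and 1533. Every WT library of days 2 to 8 lay above day 2 to day 8 of both depleted systems in Bgn. Ogn stayed between 117 and 207 FPKM in WT-1 and between 229 and 368 in WT-2 from MEF to day 8. Aspn in WT-1 read 70.7, 123, 49.0, 85.1 and 90.2 FPKM from MEF to day 8, and in WT-2 259, 179, 126, 66.7 and 67.6. The 2 WT systems thus moved apart in Aspn, WT-2 ending at 26.1% of its MEF and WT-1 at 128%. Omd diverged likewise, with 2.82, 4.08, 1.15, 4.00 and 7.35 FPKM in WT-1 and 10.6, 10.8, 2.65, 1.74 and 2.2 in WT-2.

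Decorin and lumican were higher on days 6 and 8 than in MEF of the same system in both WT systems. Dcn in WT-1 read 6.19, 6.94, 23.7, 89.0 and 193 FPKM from MEF over days 2, 4 and 6 to day 8, and in WT-2 231, 220, 184, 905 and 1238. Day 8 therefore held 31.2 and 5.36 times the MEF level. Lum read 2.50, 2.46, 15.7, 102 and 167 FPKM in WT-1 and 289, 324, 429, 894 and 1069 in WT-2, or 66.9 and 3.70 times MEF on day 8. WT-1 thereby reached in Dcn the level that WT-2 held from MEF to day 4, and stayed below every WT-2 library of MEF to day 8 in Lum. Fmod and Prelp ended above MEF in WT-1 only. Fmod went there from 18.5 FPKM to 34.7, 40.9, 153 and 182, but in WT-2 from 246 to 321, 333, 158 and 156. Prelp went in WT-1 from 10.3 FPKM to 16.3, 47.1, 106 and 89.1, but in WT-2 from 49.2 to 48.8, 19.3, 30.5 and 48.0.

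None of these WT changes passed the limma test over the 24 libraries of the stages that all 4 systems share (20305 genes). For day 2, day 4 and day 8 against MEF, 0 of the 8 genes were called, and at an unadjusted p under 0.05 there were 0, 0 and 2. Over all genes 0.0%, 0.00985% and 1.16% were called, and 117, 1526 and 3076 genes had an unadjusted p under 0.05. The 2 genes on day 8 were Dcn (3.59 ± 0.88, log2 and SE, adjusted p = 0.0688) and Lum (3.74 ± 1.17, 0.146). The rest ranged from -0.79 ± 0.57 for Aspn to 1.48 ± 0.80 for Prelp. Without WT-2, the day 8 changes of Dcn (4.76, adjusted p = 0.0182), Lum (5.59, 0.0260) and Fmod (3.23, 0.0302) passed, with the spread of the single WT system left taken from the other systems. WT-2 libraries of MEF to day 8 summed to 3936 to 8059 FPKM of macrophage and blood markers, and WT-1 to 7.12 to 16.3. The part of those cells in the difference between the WT systems was not tested. Myc read 129, 130 and 116 FPKM on days 4, 6 and 8 of WT-1 and 6.15, 6.47 and 6.17 in WT-2. On days 4 and 8 it read 0.0919 and 3.65 FPKM in Mbd3f/- and 44.4 and 5.64 in Gatad2a-/-. Whether transgene RNA is counted in these Myc values was not tested, nor was the part of Myc in the SLRP differences between systems. Fibroblast markers summed to 3245 to 9493 FPKM on WT days 4 to 8, beside 5272 and 6700 in WT MEF, and cartilage markers to 12.3 to 222 beside 84.6 and 307. Between MEF and day 8, cartilage markers went from 84.6 to 82.6 in WT-1 and from 307 to 115 in WT-2, and tendon markers from 90.7 to 35.4 and from 172 to 72.3. The part of these cells in the WT values of Aspn and Omd was not tested. Pluripotency markers (10 genes) summed to 98.5, 74.8 and 316 FPKM on days 4, 6 and 8 of WT-1. In WT-2 they summed to 0.582, 1.49 and 3.45 FPKM, and none reached an FPKM of 1 from MEF to day 8. Over days 4 to 8 of the depleted systems the sum was 386 to 5145 FPKM. The part of this gap in the SLRP differences between the classes was not tested.

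**Figure D3:**
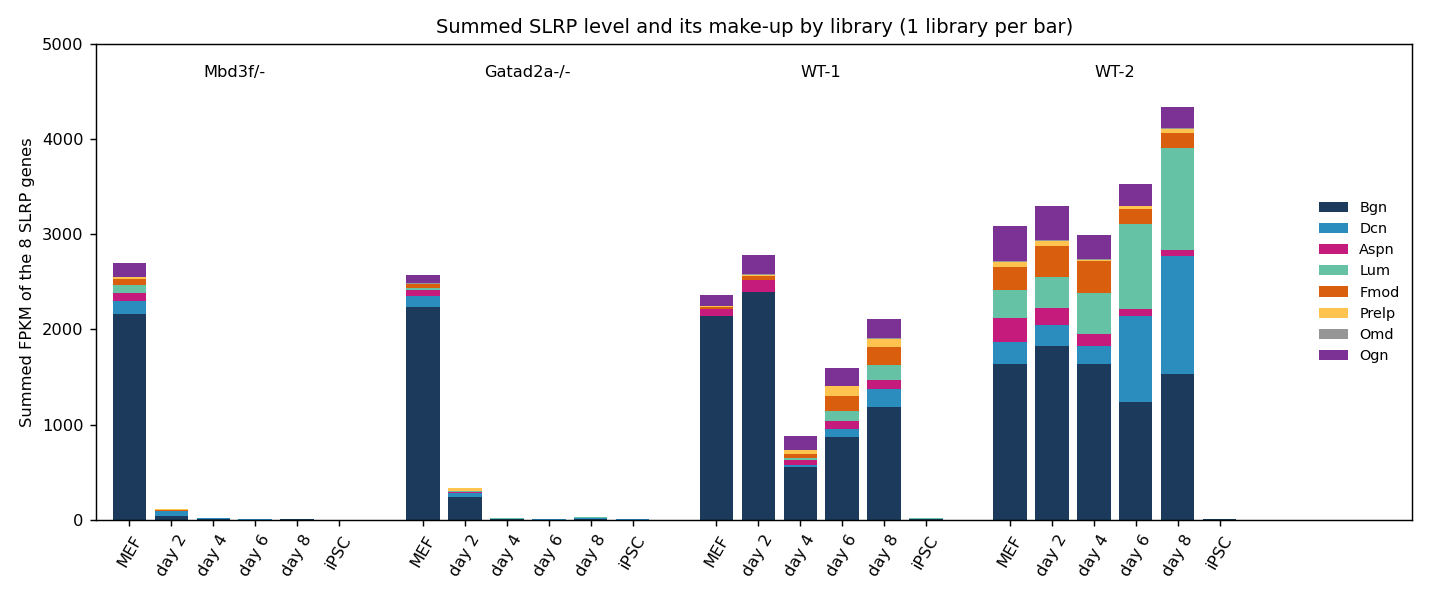
Summed FPKM of the 8 SLRP genes (y axis) in the libraries of the stages shared by all 4 systems (x axis), split by gene, 1 library per bar. The MEF bars stand between 2366 and 3085, the bars of the depleted systems are near 0 from day 4, and those of WT-2 reach 4342 on day 8 with large decorin and lumican shares.

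The make-up of the SLRP pool changed in both classes. In WT-2, Bgn went from 52.9% of the summed 3085 FPKM in MEF to 35.3% of 4342 on day 8, while Dcn went from 7.49% to 28.5% and Lum from 9.36% to 24.6%. In WT-1, Bgn went from 90.4% of 2366 FPKM to 55.9% of 2111, with Dcn at 9.15%, Lum at 7.92%, Fmod at 8.63% and Ogn at 9.52% on day 8. In Mbd3f/- the sum was 14.6% of MEF on day 1, 4.04% on day 2 and 0.882% on day 4, and Dcn made up 51.9% of what was left on day 4 where it had been 5.22% in MEF. In Gatad2a-/- the sum was 28.3%, 13.1% and 0.673% of MEF on the same days, and Dcn and Lum made up 34.3% and 13.6% on day 4. Prelp alone made up 18.8% of the sum on day 3 of Gatad2a-/-.

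The change from MEF was then compared between the classes in the same fit over shared stages, as the difference between the depleted and the WT change. The comparisons of days 2, 4 and 8 share the MEF libraries. On day 2 it was called for 3 of the 8 genes, all lower in the depleted class, where 1.87% of all genes were called lower: Ogn (-5.61 ± 0.79, log2 and SE, adjusted p = 0.00553), Aspn (-5.20 ± 0.81, 0.00817) and Bgn (-4.57 ± 0.82, 0.0157). Each of these calls depended on the systems included. Aspn did not pass without Mbd3f/- (0.103) or WT-1 (0.0800), Ogn without WT-1 (0.0898) or WT-2 (0.0635), and Bgn without Mbd3f/- (0.112), WT-1 (0.111) or WT-2 (0.0949), nor without the system block (0.0891). Prelp did not differ by more than its error on day 2 (-0.09 ± 1.13).

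On day 4 the difference was called for 5 of 8 genes, with 5.33% of all genes lower: Bgn (-7.07 ± 0.82, adjusted p = 0.00063), Ogn (-6.15 ± 0.79, 0.000916), Aspn (-5.14 ± 0.81, 0.00313), Fmod (-5.67 ± 1.23, 0.0166) and Dcn (-4.50 ± 1.24, 0.0478). The Dcn call was the weakest. It was lost without Mbd3f/- (0.219), Gatad2a-/- (0.222) or WT-1 (0.0685), with a pseudocount of 0.1 (0.0574), no filter (0.0909), quantile normalization (0.0552) or no system block (0.637). Fmod was lost without Mbd3f/- (0.207) or Gatad2a-/- (0.107) and without the block (0.120). Leaving out WT-2 added Lum (-6.36, adjusted p = 0.0400) and Prelp (-5.02, 0.0431).

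On day 8 the difference was called for 7 of 8 genes, where 7.73% of all genes were called lower. Decorin differed by -8.0 ± 1.24 (adjusted p = 0.00113), beside Bgn (-7.55 ± 0.82, 0.000104), Lum (-7.21 ± 1.66, 0.0109), Fmod (-6.79 ± 1.23, 0.00298), Ogn (-6.34 ± 0.79, 0.000242), Aspn (-5.01 ± 0.81, 0.00143) and Prelp (-4.82 ± 1.13, 0.0124). Omd did not pass (-1.32 ± 0.85, 0.320). The order of the genes depends on the pseudocount, since with 0.1 Fmod differed most (-9.52, adjusted p = 0.00146) and Dcn by -8.34. The median over the 8 was -6.56 against 0.24 over all genes tested. Bgn, Ogn and Aspn kept their day 8 call when any single system was left out. Dcn lost it without Mbd3f/- (0.0604), Lum and Fmod without Mbd3f/- (0.208 and 0.0977) or Gatad2a-/- (0.0650 and 0.0512), and Prelp without Mbd3f/- (0.165), Gatad2a-/- (0.0733) or WT-1 (0.0528). Without the system block, Dcn (0.0784) and Lum (0.248) did not pass. In FPKM, day 8 of the depleted systems held 2.97 and 8.58 of Dcn against 193 and 1238 in the WT systems, with no overlap, and the 8 genes all lay lower in both depleted libraries than in both WT libraries on that day.

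**Figure D4:**
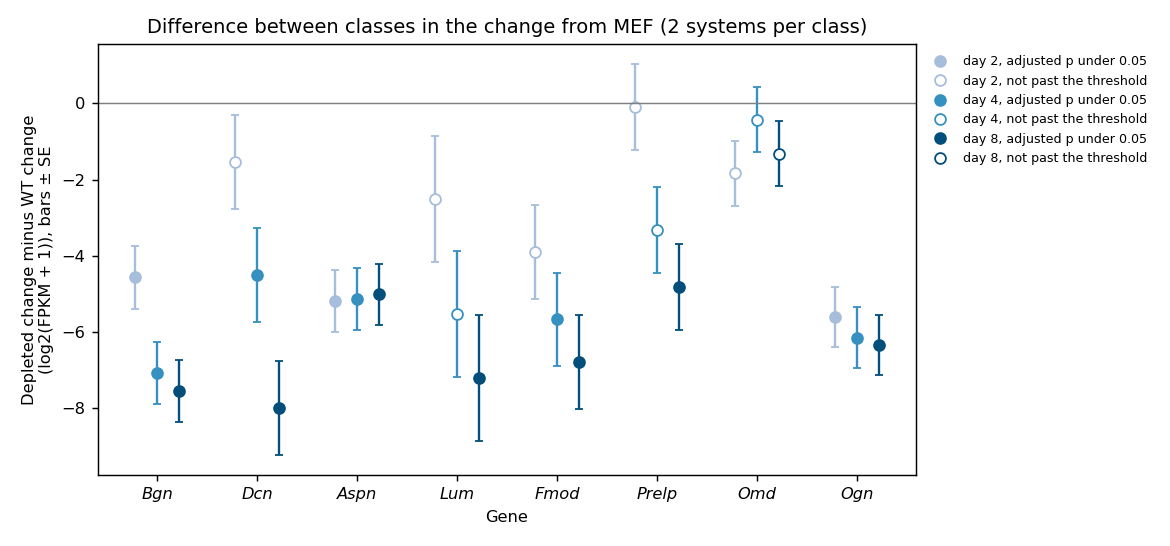
Depleted minus WT change from MEF in log2(FPKM + 1) (y axis) for each gene (x axis; points are limma estimates, bars ± SE, 2 systems per class) on days 2, 4 and 8. Filled points have an adjusted p under 0.05. Aspn stays between -5.01 and -5.20 from day 2 to day 8, whereas Dcn goes from -1.54 on day 2 to -8.0 on day 8.

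Within the depleted class alone, 4 of the 8 genes fell between MEF and day 2 (8.19% of all genes fell), namely Ogn (-5.20 ± 0.56, log2 and SE, adjusted p = 0.000206), Aspn (-5.07 ± 0.57, 0.000265), Bgn (-4.41 ± 0.58, 0.000709) and Fmod (-3.27 ± 0.87, 0.0213). By day 4 the fall covered 7 of 8, where 15.5% of all genes fell, with Omd just outside (-1.67 ± 0.60, 0.0521). Omd passed on both days with a pseudocount of 0.1 (day 2 -3.45, adjusted p = 0.00941; day 4 -3.70, 0.00266), without WT-1 (0.0262 and 0.0149) and without WT-2 (0.0265 and 0.0152), and Lum passed on day 2 without WT-1 (0.0383) or WT-2 (0.0365). Without Mbd3f/-, day 2 of Aspn (0.0518), Bgn (0.0603) and Fmod (0.395) and day 4 of Dcn (0.149), Lum (0.414), Fmod (0.140) and Prelp (0.272) did not pass. Without Gatad2a-/-, day 2 of Fmod (0.146) and day 4 of Dcn (0.147), Lum (0.107), Fmod (0.0523) and Prelp (0.123) did not, and without the block day 2 of Fmod (0.150) and day 4 of Dcn (0.205) and Lum (0.300) did not. By day 8 all 8 genes had fallen from the MEF level in this fit, where 15.3% of all genes fell. The changes ran from -8.03 ± 0.58 for Bgn (adjusted p = 1.07e-06) through -4.41 ± 0.88 for Dcn (0.0019) to -1.68 ± 0.60 for Omd (0.0447; -3.68 with a pseudocount of 0.1). Leaving out Mbd3f/- ended the calls of Dcn (0.169), Lum (-2.10, 0.545), Fmod (0.0907), Prelp (0.224) and Omd (0.167), and leaving out Gatad2a-/- those of Lum (0.118), Prelp (0.0711) and Omd (-0.92, 0.542). Without the system block, Dcn (0.0985), Lum (0.342) and Omd (0.109) did not pass, and with no filter Lum (0.0617) and Omd (0.0731) did not.

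In established iPSC every member was low in all 4 systems. Bgn stood at 0.832, 1.95, 11.3 and 6.69 FPKM in iPSC of Mbd3f/-, Gatad2a-/-, WT-1 and WT-2, and at 11.7 and 1.52 FPKM in ES of Mbd3f/- and WT-1. Dcn stood at 0.177, 1.43, 1.43 and 1.54 FPKM in iPSC and at 0.903 and 0.887 in ES. The other 6 genes were at most 1.62 FPKM in these 6 libraries, a value reached by Lum in Gatad2a-/- iPSC. Between MEF and iPSC over the 4 systems, 8 of 8 fell, where 23.9% of all genes fell, from Bgn (-8.74 ± 0.41, log2 and SE, adjusted p = 7.58e-09) and Ogn (-6.97 ± 0.40, 3.09e-08) to Lum (-4.42 ± 0.83, 0.000564) and Omd (-2.11 ± 0.42, 0.00089). Lum did not pass without Mbd3f/- (-3.78, adjusted p = 0.0567). With a pseudocount of 0.1 the change of Prelp was -5.92 in place of -3.91 and that of Omd -4.27. From day 8 of WT to WT iPSC, all 8 fell as well, where 15.7% of all genes fell, by between -2.28 ± 0.60 for Omd (0.00965) and -7.75 ± 1.17 for Lum (0.000285). With a pseudocount of 0.1 these limits were -4.72 for Omd and -9.52 for Fmod, with Lum at -8.63. The Omd call there was lost without Mbd3f/- (0.0829) or WT-1 (0.0685).

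Across the 34 course libraries, with each system centred on its own mean of log2(FPKM + 1), Aspn and Ogn had the most similar pattern of the 28 pairs (Pearson r = 0.991). Fmod and Ogn (0.943), the neighbours Dcn and Lum (0.942), Aspn and Fmod (0.923) and the neighbours Fmod and Prelp (0.923) followed, and Dcn and Omd were least alike (0.564). These values describe libraries that share the same courses, tables and stages, so high values are a description only. Among 11551 other genes, the 3 most like Bgn were Fbln5, an elastic fibre protein, Lox, the lysyl oxidase that cross-links collagen, and Gpx8 (0.976, 0.975 and 0.975). For Dcn they were Mgst1, Vcam1 and Fas (0.928, 0.921 and 0.920), for Lum Col27a1, Htra3 and Igf1 (0.948, 0.947 and 0.939), and for Ogn Casp12, Dnm3os and Mfap2 (0.988, 0.985 and 0.983). For Aspn they were Fat4, Dnm3os and Islr (0.982, 0.978 and 0.976), for Fmod P4ha3, Gas1 and the collagen gene Col6a2 (0.966, 0.965 and 0.965), for Prelp Scara3, Six2 and Cys1 (0.977, 0.950 and 0.947), and for Omd C1qtnf3, Kazald1 and C1qtnf5 (0.881, 0.861 and 0.861).

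Other SLRP genes next to the members were scarce in most libraries, but Epyc read between 14.6 and 20.8 FPKM from MEF to day 8 of WT-2. Kera and Epyc, which lie on chromosome 10 beside Lum, reached 17.3 and 20.8 FPKM in WT-2, while Kera stayed at or below 0.100 in WT-1 and Epyc reached 8.20 there. Optc, beside Prelp, reached 4.78 FPKM and Ecm2, beside Aspn, 5.59 FPKM, both in WT-1. Of 10 further SLRP genes, 8 were tested, and 6 fell between MEF and iPSC, among them Podn (-3.08 ± 0.44, adjusted p = 6.7e-05) and Tsku (-1.95 ± 0.31, 0.00014).

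The partners of SLRPs went down with them between MEF and iPSC, a step in which 23.9% of all genes fell and 29.0% rose. All 11 collagens that SLRPs bind fell, including Col1a2 (-7.25 ± 0.75, log2 and SE, adjusted p = 4.5e-06), Col5a2 (-7.19 ± 0.38) and Col6a1 (-7.15 ± 0.36), with a list median of -6.74. Of 25 enzymes that build chondroitin and dermatan sulfate chains, 19 fell and 0 rose, led by the dermatan sulfotransferase gene Chst14 (-3.55 ± 0.25). Of 7 tested enzymes of keratan sulfate chains, 5 fell and B3gnt7, which extends these chains, rose by 2.97 ± 0.61 (adjusted p = 0.0011). Of 14 genes for propeptide processing and matrix proteases, 11 fell, with Adamts1 at -5.19 ± 0.38 and Mmp2 at -5.12 ± 0.33, and Pcolce2, a procollagen C-proteinase enhancer, rose by 2.6. Among 18 ligands and receptors 16 fell, with Tgfb3 at -6.03 ± 0.47, and among 21 other proteoglycan core proteins 16 fell, with the syndecan Sdc3 at -4.92 ± 0.46. The median change over all 20305 genes was 0.14. Members of these lists overlap the fibroblast markers (Col1a1, Col1a2, Col3a1 and Fn1).

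The difference between the classes on day 8 followed the same groups. It was lower in the depleted class for 10 of 11 collagens (list median -5.95), 10 of 14 processing genes and proteases (-4.02), 10 of 21 other proteoglycans (-2.32), 8 of 25 chondroitin and dermatan sulfate enzymes (-0.87) and 7 of 18 ligands and receptors (-1.39), where 7.73% of all genes were lower and the median over all genes was 0.24. Col14a1 differed by -6.91 ± 0.56 (adjusted p = 2.4e-05) and Mmp14, a membrane collagenase, by -5.65 ± 0.49 (3.3e-05). In the keratan sulfate group 4 of 7 were lower, and B3gnt2 was higher (2.53 ± 0.64, 0.017). Among the list genes on day 8 of WT against MEF, Col14a1 (2.70 ± 0.40, adjusted p = 0.012), Mmp3 (5.40 ± 1.13, 0.042) and B4galt4 (1.42 ± 0.31, 0.047) rose and Col2a1 (-3.38 ± 0.67, 0.034), Cspg4 (-2.11 ± 0.35, 0.02) and Ugdh (-1.38 ± 0.25, 0.026) fell. From days 4-6 to days 7-8 of the depleted systems, 0 of 11 collagens and 0 of 7 tested further SLRP genes were called (limma, adjusted p), where 15.2% of all genes were. Among chondroitin and dermatan sulfate enzymes 1 rose, the epimerase gene Dse (1.70 ± 0.20, 0.0002), and 4 fell, including Chst13 (-1.05 ± 0.27, 0.019). Of the other proteoglycans 3 rose, including Sdc4 (1.86 ± 0.33, 0.0032), and 3 fell, including Gpc6 (-1.65 ± 0.34, 0.0068). Of ligands and receptors 3 rose, including Fn1 (2.04 ± 0.27, 0.00043), and 1 fell, Egfr (-1.72 ± 0.47, 0.028). Keratan sulfate enzymes had 3 rises and 1 fall, and proteases 1 of each.

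The Myc libraries have 1 library per condition, so no test was made, and a difference of at least 1 in log2(FPKM + 1) is called higher or lower. Myc itself went against the labels of the cMyc libraries of day 4. It stood at 3.16 FPKM in that labelled OSK + cMyc and 0.510 in that labelled cMyc, against 24.8 in that labelled OSK. In the library labelled siMyc day 3, Myc stood at 29.2 FPKM against 30.5 and 26.5 in the si-Scramble MEF. No si-Scramble library of day 3 exists, so that level cannot be set against its label. The library labelled siMyc day 7 read lower in Myc, as labelled, at 11 FPKM against 16.2 in si-Scramble day 7. Mycn, also targeted, was lower on day 3 (1.87 against 5.11 and 4.43 FPKM) and day 7 (0.927 against 1.47), and Mycl was higher on both days (3.93 against 1.65 and 1.29, and 3.31 against 1.03). Whether transgene RNA is counted in this gene was not tested, so every direction below belongs to the labels and not to a measured Myc level. The 2 si-Scramble MEF differed by a median of 0.10 over 16436 genes and by at most 0.44 in any of the 8 members. Myc libraries were deposited in a table of their own, and their values are compared within it.

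**Figure D5:**
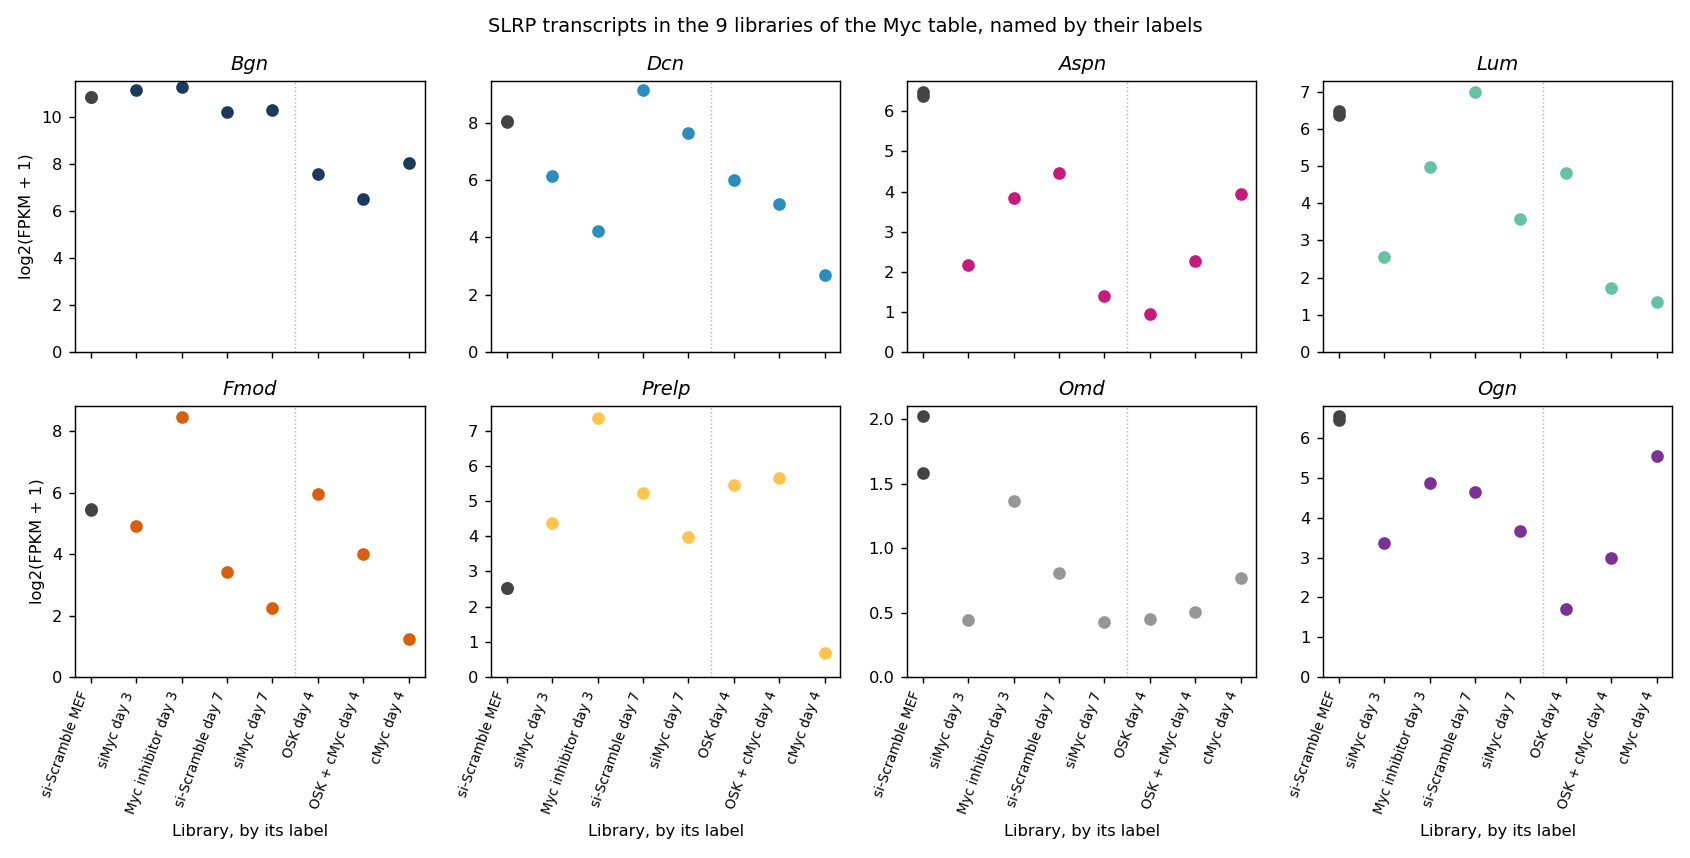
Level of each SLRP transcript as log2(FPKM + 1) (y axis) in the 9 libraries of the Myc table, by label (x axis). Dark grey points at the left are the 2 si-Scramble MEF, the other points are single libraries, and the dotted line sets off the day 4 libraries. Bgn stays near the MEF level in the si-Scramble, siMyc and inhibitor libraries, Prelp lies above MEF in all libraries but the one labelled cMyc, and Aspn and Ogn lie below MEF throughout.

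In the library labelled si-Scramble day 7, biglycan and decorin were still abundant. Bgn read 1195 FPKM against 1879 and 1861 in the si-Scramble MEF, and Dcn 559 against 262 and 264. Lum read 128 against 88.0 and 81.5, and Prelp 36.1 against 4.76 and 4.80. Aspn (21.0 against 88.2 and 83.0), Ogn (24.3 against 93.9 and 87.5) and Fmod (9.74 against 42.4 and 43.7) were lower. Omd (0.75 against 3.06 and 2.00) lay at the edge of the rule, past it without the second MEF replicate (-1.22), with a pseudocount of 0.1 (-1.60) or with quantile normalization (-1.01). By the rule of 1 log2 unit, 2 members were higher and 3 lower, where 7.22% and 5.43% of all genes were. The summed SLRP level was 80.8% of the mean of the MEF pair, where day 7 of Mbd3f/- held 0.272% of its MEF in the separate course table. Pluripotency markers summed to 81.1 FPKM in si-Scramble day 7 and 4013 on day 7 of Mbd3f/-, and fibroblast markers to 5912 and 164. The SLRP gap between tables was not tested, nor was the part of these cells in it.

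The library labelled siMyc day 7 differed from the library labelled si-Scramble day 7 in 5 members, all lower (4.17% of all genes were lower and 3.12% higher). Aspn read 1.61 against 21.0 FPKM, Lum 10.8 against 128, Dcn 197 against 559, Fmod 3.71 against 9.74 and Prelp 14.9 against 36.1, or 13, 11.8, 2.84, 2.62 and 2.43 times less. Bgn was the same within 1.07 times (1273 against 1195 FPKM), and Ogn just missed the rule (11.7 against 24.3 FPKM, -0.99) but passed it with a pseudocount of 0.1 (-1.05) or quantile normalization (-1.04). Of the 11 collagens, 8 were lower too, as were 7 of 10 fibroblast markers. Keratinocyte markers (6 genes) summed to 159 and 169 FPKM in these day 7 libraries and to 6.87 and 7.53 in the MEF pair, and their part in the SLRP values was not tested.

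There is no si-Scramble library of day 3, so the day 3 libraries are compared with the si-Scramble MEF. Treatment and days of reprogramming cannot be told apart in these comparisons. The library labelled siMyc day 3 held Bgn at 2273 FPKM and Fmod at 29.0, near the MEF pair. It held Prelp at 19.9, or 4.16 times the MEF mean. Aspn (3.50 FPKM), Lum (4.89), Ogn (9.42) and Dcn (69.0) were 24.5, 17.3, 9.63 and 3.82 times below the MEF mean. With Omd, 5 members were lower and 1 higher, where 8.35% and 4.57% of all genes were. In that library keratinocyte markers summed to 61.9 FPKM against 6.87 and 7.53 in the MEF pair, macrophage and blood markers to 16.3 against 44.8 and 53.1, and tendon markers to 17.0 against 40.4 and 39.5, and their part was not tested. The library labelled Myc inhibitor day 3 held the highest Fmod and Prelp of the 9 libraries. Fmod read 351 FPKM (8.15 times the MEF mean) and Prelp 163 FPKM (34.1 times), while Dcn at 17.8 FPKM was 14.8 times lower and Aspn (13.2), Ogn (28.4) and Lum (30.7) were 6.49, 3.19 and 2.76 times lower. Here 2 members were higher and 4 lower, where 10.1% and 10.3% of all genes were. Cartilage markers summed to 150 FPKM in that library against 28.8 and 30.5 in the MEF pair, and their part in Fmod and Prelp was not tested.

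Among the day 4 libraries, Bgn read 192 FPKM in the one labelled OSK, 91.6 in OSK + cMyc and 265 in cMyc. Lum read 26.9, 2.31 and 1.54 FPKM, Fmod 61.1, 15.1 and 1.34, and Dcn 62.7, 34.4 and 5.36, so these 3 genes were lower in the same order of libraries. Prelp read 42.7, 49.6 and 0.602 FPKM. Ogn went the other way with 2.28, 6.92 and 45.8 FPKM, as did Aspn with 0.907, 3.78 and 14.2. Between the libraries labelled OSK + cMyc and OSK, Lum, Fmod and Bgn were lower and Aspn and Ogn higher, where 15.7% of all genes were lower and 11.1% higher, and Bgn missed the rule with quantile normalization (-0.94). Against the library labelled cMyc, that of OSK + cMyc held 82.4 times more Prelp, 11.3 times more Fmod and 6.43 times more Dcn, and 6.62, 3.76 and 2.90 times less Ogn, Aspn and Bgn, where 8.82% of all genes were higher and 3.98% lower. In the libraries labelled OSK, OSK + cMyc and cMyc, keratinocyte markers summed to 7.24, 62.8 and 6.15 FPKM, endothelial markers to 34.8, 15.6 and 0.361, and tendon markers to 4.05, 15.1 and 15.5. Their part in these differences was not tested.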

How the data were processed

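The authors deposited FPKM values per gene in 5 tables, 1 for each system and 1 for the Myc libraries, covering 43 libraries. The submitters' processing notes name the build mm10, the aligner TopHat2 (2.0.10), Cufflinks (2.2.1) and CASAVA (1.8.2), without parameters. Rows of the 19 repeated gene IDs were summed, and no column was left without a sample (0 of them). Groups came from sample labels.

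Stages shared by all 4 systems (24 libraries) and MEF to iPSC of the depleted systems (20 libraries) were each fitted on log2(FPKM + 1) by limma (version 3.58.1, under R 4.3.3), with terms for stage within class and for the system, trend and robust variance, a filter that kept genes reaching an FPKM of 1 in 2 or more libraries, and Benjamini-Hochberg adjustment at 0.05 over all genes. Each stage has 1 library per system, so systems are the replicates. The scale of log2(FPKM + 1) understates changes of low genes. The code was tested on simulated data. In the Myc table a difference of at least 1 on that scale was called, without a test. Alternatives were a pseudocount of 0.1, no filter, quantile normalization, no system block, limma without trend and robust variance, and leaving out each system or MEF replicate.

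The members, gene lists and tests were chosen with earlier results of these data known. All 8 members are described, with at most 4 genes of each list with the largest changes past the threshold, and the 3 genes most like each member by Pearson r among genes that reached an FPKM of 5 in 2 or more course libraries.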

Additional observations from a re-analysis of the deposited data

Results flagged for a closer look

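The change from MEF differed between the depleted and the WT systems by the tested difference itself (limma, adjusted p under 0.05) in 15 cases, on the log2(FPKM + 1) scale. On day 2 these were Ogn (-5.61), Aspn (-5.20) and Bgn (-4.57). On day 4 they were Bgn (-7.07), Ogn (-6.15), Fmod (-5.67), Aspn (-5.14) and Dcn (-4.50). On day 8 they were Dcn (-8.0), Bgn (-7.55), Lum (-7.21), Fmod (-6.79), Ogn (-6.34), Aspn (-5.01) and Prelp (-4.82). All 15 were lower in the depleted systems, and the days share the MEF libraries. No group held 4 or more libraries, so single libraries were not screened for distance from their group.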

How the results depend on the processing

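Counts of genes called depended on the setting. Without the system block the counts were 6411 (iPSC against MEF), 515, 1831 and 2910 (depleted days 2, 4 and 8 against MEF), 1 and 1 (WT days 4 and 8), 28, 205 and 847 (class difference on days 2, 4 and 8), 2833 (WT iPSC against day 8) and 1325, 3032, 1805 and 953 (day 1, days 1-3, days 4-6 and days 7-8 of the depleted courses), where the block gave 10754, 3688, 5792, 6969, 2, 235, 493, 1310, 3274, 7171, 4676, 6818, 4100 and 3063. A pseudocount of 0.1 gave 255 for the class difference on day 2, 6 for WT day 4, and among the Myc libraries a count of 3377 for OSK + cMyc against cMyc, 3121 for si-Scramble day 7, 3567 for siMyc day 3 and 2029 for siMyc day 7. No filter gave 306 for the class difference on day 2 and 112 for WT day 8, and quantile normalization 5 for WT day 4. Leaving out 1 system in turn gave 8056 to 11635 for iPSC against MEF, 2640 to 3283, 3299 to 5316 and 4023 to 6131 for depleted days 2, 4 and 8, 0 to 15, 1 to 91 and 1 to 322 for WT days 2, 4 and 8, 49 to 2265, 241 to 3336 and 1035 to 4971 for the class difference, and 1689 to 7155 for WT iPSC against day 8. Leaving out 1 si-Scramble MEF gave 3356 to 3364 for the inhibitor, 2115 to 2122 for si-Scramble day 7 and 2160 to 2204 for siMyc day 3.

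Single-gene values of the 8 members under other settings counted as the same in 992 cases. The call was lost in 63 and gained in 13, 37 moved without a test and 23 changed sign. For tested values, the same means that direction and call were kept, at any size. For depleted courses with 1 system left, which have no test, it means within 1 SE of the main value. For Myc libraries it means the same side of the rule. In these untested kinds, a sign change was counted only where the main value was called. Lum on depleted day 1, for example, was 0.28 in Gatad2a-/- alone against -0.98 in the fit, and is not among the 23. The 23 sign changes were all in values that had not passed the test. With quantile normalization they were WT day 2 Dcn (-0.042) and Lum (-0.043), WT day 8 Ogn (-0.14) and depleted days 7-8 Ogn (-0.087). Leaving out 1 system in turn gave, for WT day 2, Dcn -0.070 to 0.14, Aspn -0.53 to 0.78, Prelp -0.011 to 0.61, Ogn -0.0037 to 0.82 and Lum -0.018 to 0.17. It gave, for WT day 4, Bgn -1.94 to 0.0079, Dcn -0.32 to 1.78, Prelp -1.30 to 2.09 and Ogn -0.54 to 0.36, and for WT day 8 Fmod -0.65 to 3.23, Prelp -0.035 to 3.00, Ogn -0.68 to 0.77, Aspn -1.92 to 0.35 and Omd -1.85 to 1.13, in each case set by leaving out WT-1 or WT-2. Prelp ranged from -1.06 to 1.49 on depleted day 2 and from -1.36 to 1.19 in the class difference of day 2, and Omd from -1.14 to 0.30 and -2.81 to 0.18 in the class differences of days 4 and 8. For these the cause was not tested. Stages of 1 system are linked in the fits by the system block. By replicate number, no paired analysis was possible because each stage of a system has 1 library and the numbers do not link groups. The reads behind each FPKM are unknown, so the error of values near 0 cannot be given.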
